A study of Mus musculus with 2 samples.

Results

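Ether lipid metabolism was followed through 5 genes, Gnpat, Agps, Far1, Dhrs7b and Agmo, taken by symbol from the 32285 genes listed in both deposited matrices. Of these genes, Agmo encodes an enzyme that cleaves ether lipids and the others act in their synthesis. The pathway was chosen by a measured value, the Agps ratio of preputial gland (PG) over skin, which lay among the highest of all genes, so that ratio is given as a description and carries no test. Single cells came from back skin biopsies and whole PG of male C57BL/6 mice aged 52 weeks, with no treatment named. The cells of 3 mice were pooled by tissue and 1 droplet library was made per tissue, so there are no replicates, no p-value is given, and tissue and library cannot be told apart. The paper describes the same kit for its libraries, but their barcode lists differed in length. Whether the chemistry was the same is not known, and the part of this in the tissue ratios was not tested.

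Ether lipids carry a fatty alcohol on the glycerol backbone through an ether bond in place of an ester bond. Their synthesis starts in peroxisomes and is completed in the endoplasmic reticulum, where the products include plasmalogens and other ether phospholipids, and alkyl diacylglycerols occur among the neutral lipids of sebaceous glands. Gnpat encodes the acyltransferase that loads dihydroxyacetone phosphate, and Agps encodes the synthase that then exchanges the acyl chain for a fatty alcohol. Far1 encodes a reductase that makes the fatty alcohol, Dhrs7b encodes the reductase of the alkyl intermediate, and Agmo encodes the monooxygenase that cleaves the ether bond with tetrahydrobiopterin as cofactor.

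In mm10 coordinates of the GENCODE M21 annotation, Gnpat spans chr8:124863033-124890057, Agps chr2:75832177-75931350, Far1 chr7:113513834-113571511, Dhrs7b chr11:60830631-60860195 and Agmo chr12:37241641-37582202, each on the plus strand. No gene of the files overlaps any of them on the same strand. The sequences before the starts of Agps and Far1 are shown because these were the members with the largest differences between sebocyte stages. They are from the RefSeq promoter table (GRCm38.p6, plus strand), cover the 250 bases before the start (chr2:75831927-75832176 and chr7:113513584-113513833), and have in capitals each CCAAT and GGGCGG found on either strand, so that ATTGG and CCGCCC are capitals too.
Agps: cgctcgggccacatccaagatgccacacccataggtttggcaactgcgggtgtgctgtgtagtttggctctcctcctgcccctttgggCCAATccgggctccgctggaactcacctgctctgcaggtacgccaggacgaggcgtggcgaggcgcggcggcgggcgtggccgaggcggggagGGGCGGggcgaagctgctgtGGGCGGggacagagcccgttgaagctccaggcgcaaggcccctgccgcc
Far1: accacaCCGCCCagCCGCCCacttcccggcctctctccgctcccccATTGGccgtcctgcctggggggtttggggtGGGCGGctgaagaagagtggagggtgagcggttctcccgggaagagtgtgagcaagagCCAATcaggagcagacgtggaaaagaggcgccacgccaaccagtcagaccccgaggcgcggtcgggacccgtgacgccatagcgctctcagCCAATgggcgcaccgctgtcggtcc
The Agps sequence held 1 CCAAT and 2 GGGCGG, and the Far1 sequence held 3 of each. Among 32817 promoter sequences of this length, 33.8% held CCAAT and 32.7% held GGGCGG. The G and C content was 70.0% for Agps, 67.6% for Far1 and for Gnpat, 46.4% for Dhrs7b and 40.8% for Agmo, beside a median of 52.4% over all promoters. The sequences of Dhrs7b and Agmo held neither motif, and that of Gnpat held 1 GGGCGG. A match of letters describes the sequence and is not evidence of a bound factor.

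After barcodes were required to hold at least 500 genes, at least 1000 unique molecular identifiers (UMIs) and at most 10% mitochondrial UMIs, 8899 skin cells and 4699 PG cells remained, with medians of 2386 and 2729 UMIs and no cell barcode in common. Cells were assigned to classes by marker genes, which gave 47 sebocytes with 210235 UMIs in skin and 1150 sebocytes with 5431992 UMIs in PG. All 10 sebocyte markers were higher in the sebocytes than in the other classes of the same library. The same markers defined the class, so this follows from the assignment and is no check of it. Sebocytes were divided into early, middle and late stages by the summed share of 5 late markers (Awat2, Elovl3, Soat1, Cidea and Plin2), under 10, from 10 to 30, and at least 30 UMIs per 10000. This gave 14, 17 and 16 cells in skin and 399, 639 and 112 in PG. Summed over its cells, the skin early stage also held 11401 CPM of suprabasal or duct keratinocyte markers, against 169 CPM in the PG early stage. The median over the skin early cells was 2.99 UMIs of these markers per 10000. Hair follicle matrix markers stood at 3206 CPM over all skin sebocytes and 5180 CPM in the late ones, with 1 and 3 of 10 markers at 0, against 4.42 and 5.85 CPM in PG, with 5 and 7 at 0. The median over the cells was 0 UMIs per 10000 both in all skin sebocytes and in the late ones. The skin sums of both marker lists thus rested on part of the cells. The part of these markers in the sebocyte ratios between tissues was not tested. Levels are UMIs of a gene scaled to the total UMIs of a group (CPM). Intervals in parentheses are exact and at the 95% level. They allow for counting error on the summed UMIs but not for spread between cells or differences between animals. Because reads came from transcript ends, levels were compared within a gene.

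Gnpat, which starts the pathway, was highest in sebocytes among the 9 classes of PG. Its level there was 59.5 CPM (53.2 to 66.3), and the other classes ranged from 0 UMIs in contractile cells to 25.3 CPM in cycling cells. The exact upper limits were 97.1 CPM in contractile and 76.2 CPM in endothelial cells, so these classes were not shown to be lower. Across the PG stages Gnpat stood at 35.0 CPM (26.3 to 45.7) in early, 63.9 CPM (55.5 to 73.3) in middle and 93.7 CPM (72.1 to 120) in late sebocytes. The early and late intervals did not overlap, and the late over early log2 ratio was 1.42 (0.87 to 1.97). In skin, Gnpat was seen as 7 UMIs in sebocytes, or 33.3 CPM (13.4 to 68.6), and 6 of these were in late sebocytes. Skin basal keratinocytes, the proliferative layer next to the basement membrane, had 18.6 CPM (15.9 to 21.7), so the interval of the skin sebocytes covered that level. The PG over skin log2 ratio in sebocytes was 0.84, with an interval of -0.22 to 2.16 that includes no difference.

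Agps, the enzyme that forms the ether bond, had 777 CPM (754 to 801) in PG sebocytes. The next classes of PG were basal cells with 137 CPM (125 to 149) and cycling cells with 124 CPM (102 to 150), whose intervals overlapped. Fibroblasts had 78.5 CPM (60.6 to 100) and upper follicle cells had the lowest level, 34.9 CPM (27.5 to 43.7). Sebocytes held 79.9% of the Agps UMIs in PG cells while they held 35.6% of all cell UMIs. In skin, no Agps UMI was found in any of the 47 sebocytes. A count of 3 would be 14.3 CPM, and the exact upper limit was 17.5 CPM. The other skin classes ranged from 0 UMIs in 20 melanocytes to 72.9 CPM in 19 contractile cells, the latter from 3 UMIs, and skin basal cells had 13.5 CPM (11.2 to 16.2). The count of 0 in skin sebocytes therefore did not place them below the skin basal cells at this depth.

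Set against 3 counts over the skin sebocytes, Agps was 54.5-fold higher in PG sebocytes, a log2 ratio of 5.77 with an exact lower limit of 5.47. It ranked 5 among the 6108 genes with at least 20 CPM in either group, and this is the ratio for which the pathway was chosen. The difference between tissues also appeared in cells outside the sebocyte class. Agps was 10.1-fold higher in PG than in skin basal cells (log2 3.34, 3.05 to 3.64), 4.08-fold higher in cycling cells (log2 2.03, 1.59 to 2.47) and 4.53-fold higher in fibroblasts (log2 2.18, 1.55 to 2.84). The basal class was set by markers that early sebocytes share. In PG this class held 1338 CPM of sebocyte markers, against 125 CPM in skin. Their part in the basal ratios between tissues was not tested. Over all genes tested, 16.3% were at least 2-fold higher and 15.3% lower in PG basal cells, and 10.1% were higher and 7.87% lower in PG fibroblasts. Agps reached 20 CPM through the PG group alone in both comparisons, so no count of members is read from them. In macrophages or dendritic cells the log2 ratio was 0.55, with an interval of -0.49 to 1.62.

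**Figure D1:**
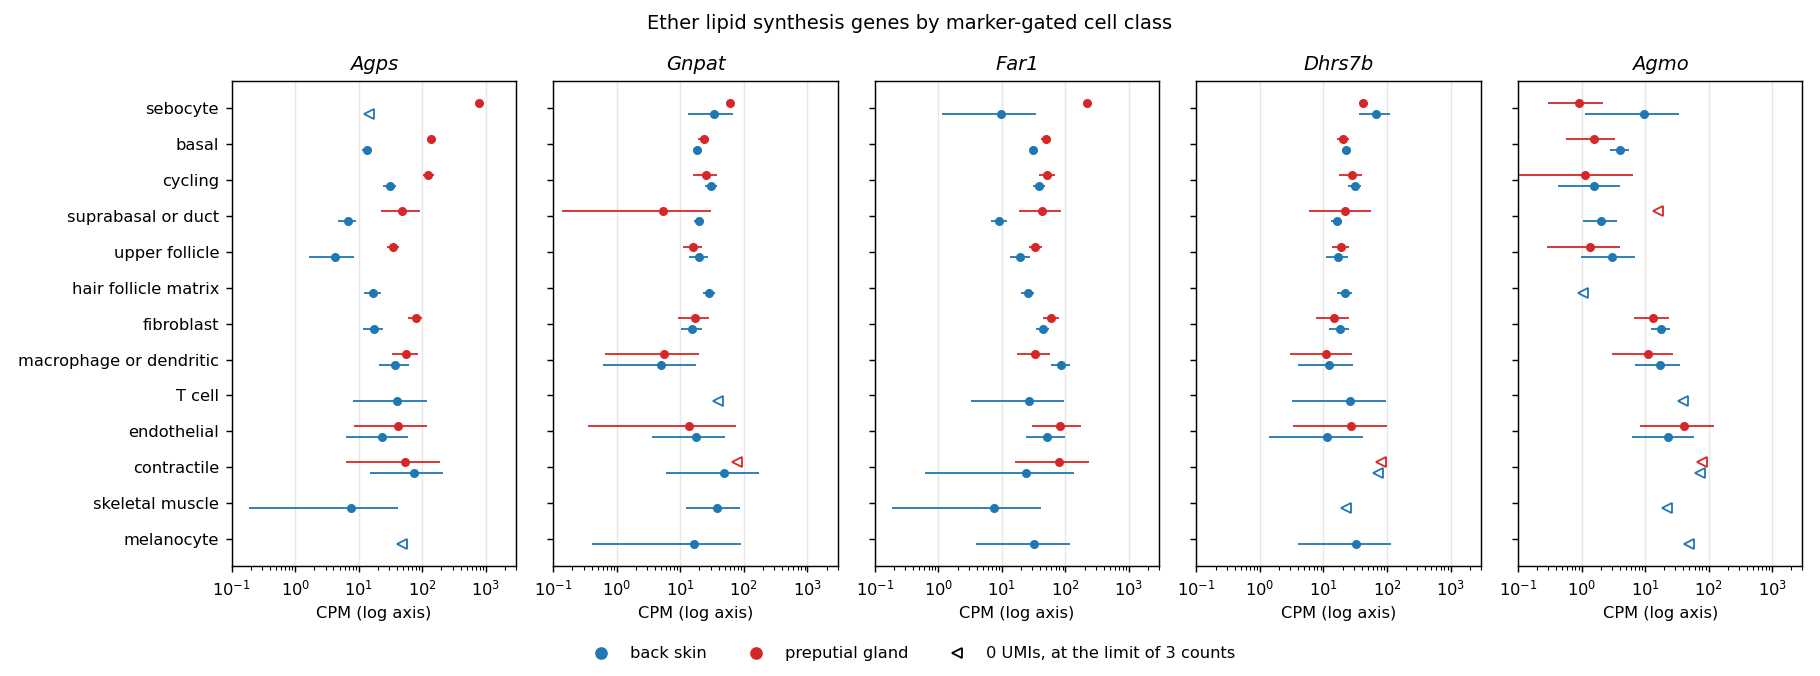
CPM of each gene (log axis) in the marker-gated cell classes of back skin (blue) and preputial gland (red). Points are levels over the summed UMIs of a class, bars are exact 95% intervals, and open triangles mark classes with 0 UMIs at the limit of 3 counts. Agps stands at 777 CPM in gland sebocytes and at 0 UMIs in skin sebocytes, and Agmo is highest in endothelial cells of both tissues.

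In PG barcodes with 1 to 100 UMIs, taken here as a measure of RNA outside cells, Agps had 1229 CPM (1186 to 1272), and in the same barcodes of skin it had 9.12 CPM (6.81 to 12.0). Of the 12441 Agps UMIs in the PG library, 57.5% lay outside the cells kept, compared with 41.9% of the UMIs of all genes. The level in PG basal cells was 11.1% of the free RNA level, that in fibroblasts 6.39% and that in upper follicle cells 2.84%. For the 10 sebocyte markers, the level in basal cells ranged from 1.74% (Mc5r) to 79.6% (Pparg) of their free RNA level, with a median of 10.7%. Cells that met the sebocyte rule were not counted as basal, which held these marker levels down. The range is therefore no yardstick for Agps. From markers of fibroblasts, T cells, macrophages or dendritic cells and endothelial cells, free RNA was estimated at 6.25% of the UMIs of PG basal cells. The part of free RNA in the tissue difference of cells other than sebocytes was not tested. PG barcodes above the mitochondrial limit, of which there were 662, had 1202 CPM of Agps.

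**Figure D2:**
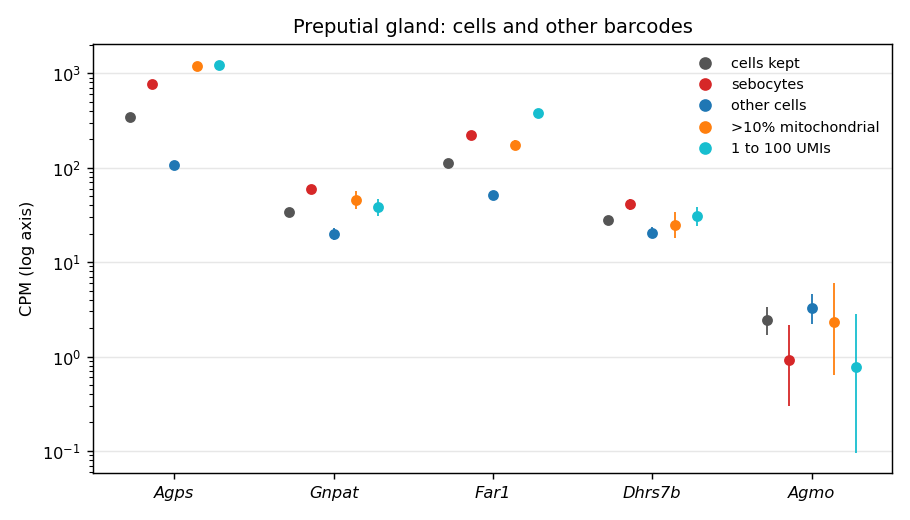
CPM of each gene (log axis) in preputial gland cells, in sebocytes, in other cells, in barcodes above 10% mitochondrial UMIs and in barcodes with 1 to 100 UMIs, with exact 95% intervals. Agps and Far1 reach 1229 and 382 CPM in the barcodes with 1 to 100 UMIs, above their levels over all sebocytes.

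Within PG, where the library is shared, Agps differed between stages. It had 330 CPM (302 to 360) in early, 643 CPM (615 to 671) in middle and 2414 CPM (2299 to 2534) in late sebocytes. The 3 intervals did not overlap, and the late over early log2 ratio was 2.87 (2.73 to 3.02). When the stages were divided more finely into 6 bins of late-marker share, Agps was higher in each bin than in the one before, from 242 CPM in the lowest to 3751 CPM in the highest. With every cell thinned to 1000 UMIs, an Agps UMI was found in 19.0% (15.3 to 23.3) of early, 35.2% (31.5 to 39.1) of middle and 67.9% (58.4 to 76.4) of late sebocytes, and in 5.75% (2.79 to 10.3) of macrophages or dendritic cells. Without thinning these shares were 48.6%, 68.1%, 89.3% and 10.3%, at median depths of 3511, 4677, 6301 and 1853 UMIs. In skin, none of the 3 stages held an Agps UMI. The late over early log2 ratio of Agps in PG was 2.04 with doubled marker limits and 0.53 (0.24 to 0.83) with Leiden clusters in place of the gates, which left 9 early cells.

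Of the 4 members that reached 20 CPM in early or late PG sebocytes, 3 were at least 2-fold higher in late cells, namely Agps, Gnpat and Far1, where 10.3% of the 5881 genes tested were. None was at least 2-fold lower, as 17.6% of the genes were. All 4 were above 20 CPM in both stages, and Far1 was no longer past 2-fold without 16 cells described further on. Gnpat did not stay past 2-fold either, as its log2 ratio went down to 0.35 among 12 alternatives. The median log2 ratio over all genes tested was -0.17. In the comparison of PG sebocytes with PG basal cells, all 4 were at least 2-fold higher in sebocytes, where 7.6% of 5841 genes were, and none was lower, as 8.41% were. This count did not hold for every member. Far1 reversed to -0.68 without the same 16 cells and the basal cells past their Far1 limit, cells picked by Far1 itself. It reversed to -0.063 with at most 5% mitochondrial UMIs, and Dhrs7b was under 2-fold in 6 of 12 alternatives, down to 0.81. The log2 ratios were 2.50 (2.37 to 2.64) for Agps, 2.18 (1.96 to 2.41) for Far1, 1.35 (1.01 to 1.71) for Gnpat and 1.02 (0.64 to 1.41) for Dhrs7b. Agmo was under 20 CPM in these groups and was not counted. Between middle and early PG cells no member passed 2-fold, as 1.93% of genes did upward and 3.9% downward, and between late and middle cells Agps and Far1 were at least 2-fold higher, as 6.23% of genes were, and no member was lower, as 6.71% were. In skin, 2 members reached 20 CPM with more than 3 UMIs in early or late sebocytes. Agmo, at 22.8 CPM in late cells from 2 UMIs, was not tested. Gnpat, above 20 CPM in late cells alone, was past 2-fold higher on 6 against 1 UMIs, where 21.9% of genes were higher and 22.7% lower.

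**Figure D3:**
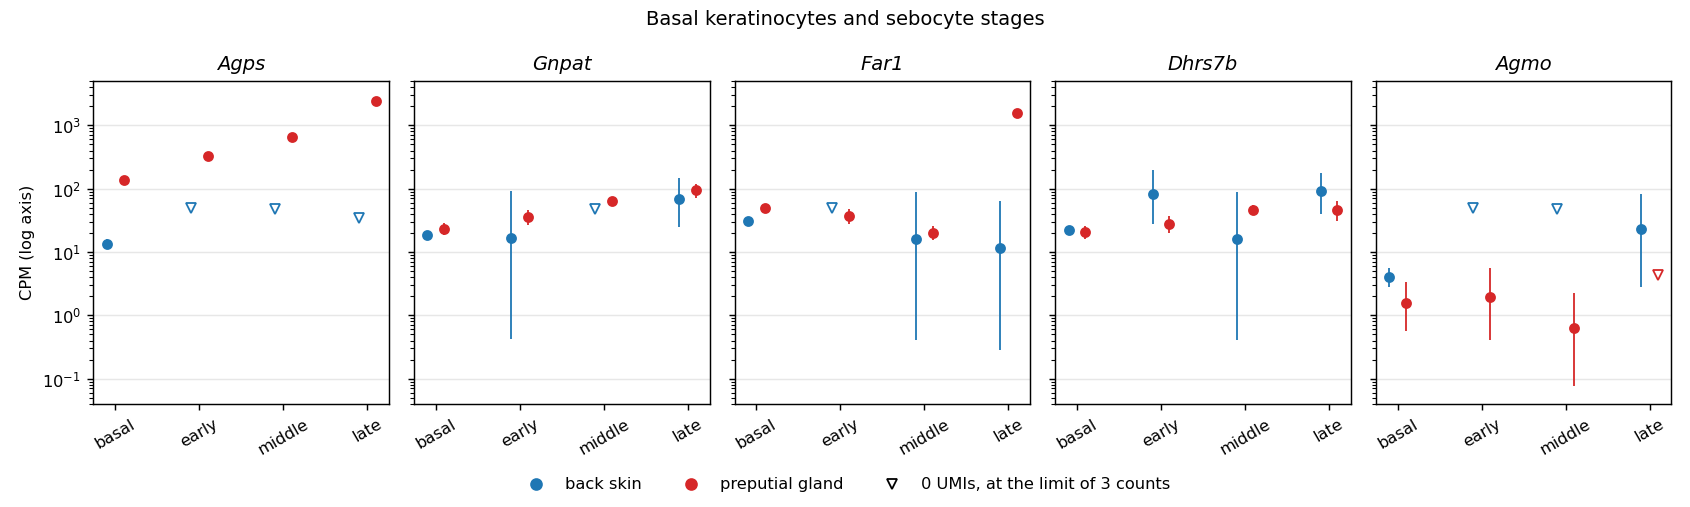
CPM of each gene (log axis) in basal keratinocytes and in early, middle and late sebocytes of back skin (blue) and preputial gland (red), with exact 95% intervals and open triangles for 0 UMIs at the limit of 3 counts. In the gland, Agps goes from 330 to 643 to 2414 CPM, while Far1 goes from 36.3 to 20.3 to 1577 CPM.

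Far1, which supplies the fatty alcohol, had another course. PG sebocytes had 221 CPM (208 to 234), the highest of the 9 classes, ahead of endothelial cells with 82.0 CPM (30.1 to 178) and contractile cells with 79.0 CPM (16.3 to 231), the former from 6 and the latter from 3 UMIs. Early sebocytes had 36.3 CPM (27.5 to 47.2), middle sebocytes 20.3 CPM (15.6 to 25.8) and late sebocytes 1577 CPM (1485 to 1675). The middle stage was thus below the early stage (log2 -0.84, -1.38 to -0.30), and the late stage was above the middle stage by 6.28 on the log2 scale (5.92 to 6.67). In the 5 lower bins of late-marker share Far1 lay between 13.1 and 43.4 CPM, and in the highest bin, with 32 cells, it reached 4260 CPM.

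The Far1 level of the late stage rested on few cells. In PG, 16 sebocytes with at least 10 Far1 UMIs per 10000, a limit chosen after the values were seen, held 1047 of the 1199 Far1 UMIs of all sebocytes. All 16 were late sebocytes. Their Far1 share ranged from 15.1 to 128 UMIs per 10000, with a median of 67.4. Each also held at least 10 UMIs per 10000 of Awat2, which encodes a wax synthase that uses fatty alcohols, and 19 further sebocytes reached that Awat2 share without reaching the Far1 limit. Awat2 is 1 of the 5 late markers and so helped to place cells in the late stage. No Far1 UMI was found in 83 of the 112 late sebocytes, nor in 1007 of all 1150.

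All 16 of these cells held Agps UMIs, and their Agps level was 3580 CPM (3270 to 3911), against 2122 CPM (2001 to 2248) in the other 96 late sebocytes. Gnpat had 124 CPM (72.2 to 198) and 86.0 CPM (63.2 to 114) in these cells and the other late cells, with overlapping intervals, and Dhrs7b had 14.6 CPM (1.77 to 52.7) and 53.1 CPM (35.6 to 76.2), also overlapping. The 16 cells had a median of 9322 UMIs and 6.97% mitochondrial UMIs, and the other late cells had 5894 UMIs and 5.04%. Whether depth or mitochondrial share had a part in the Far1 values was not tested. Without these cells the late over early log2 ratio of Far1 was 0.64 (-0.04 to 1.30). For the sebocyte over basal ratio the same Far1 limit was also applied to PG basal cells, which left 1417 of 1422. That ratio of Far1 turned from 2.18 to -0.68 (-0.999 to -0.354). The cells were picked by their Far1 share, so a lower Far1 level without them followed from the choice. With at most 5% mitochondrial UMIs the sebocyte over basal ratio of Far1 was -0.063 (-0.39 to 0.26). Agps without the 16 cells was still higher in late than in early cells, with a log2 ratio of 2.68 (2.53 to 2.84).

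**Figure D4:**
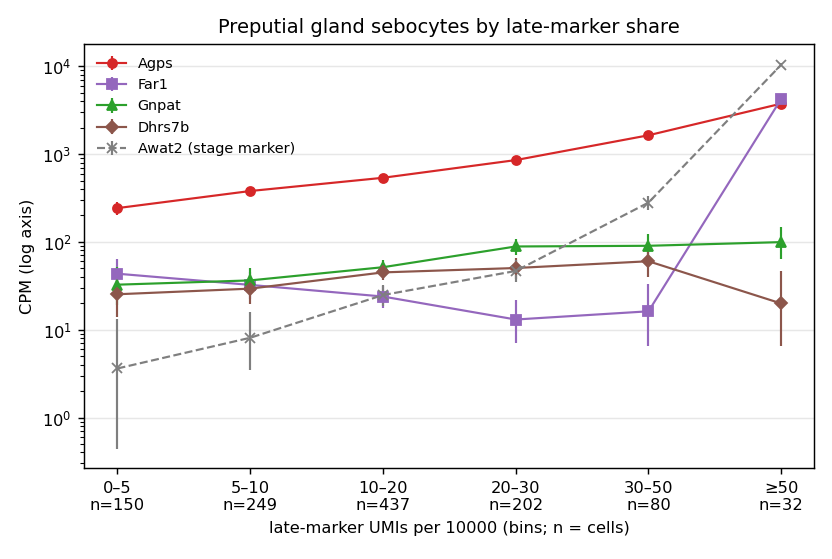
CPM (log axis) of 4 ether lipid genes and of the stage marker Awat2 in 6 bins of late-marker share among preputial gland sebocytes, with exact 95% intervals and the number of cells per bin. Agps goes from 242 to 3751 CPM over the bins, and Far1 stays at or under 43.4 CPM until the last bin, at 4260 CPM.

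**Figure D5:**
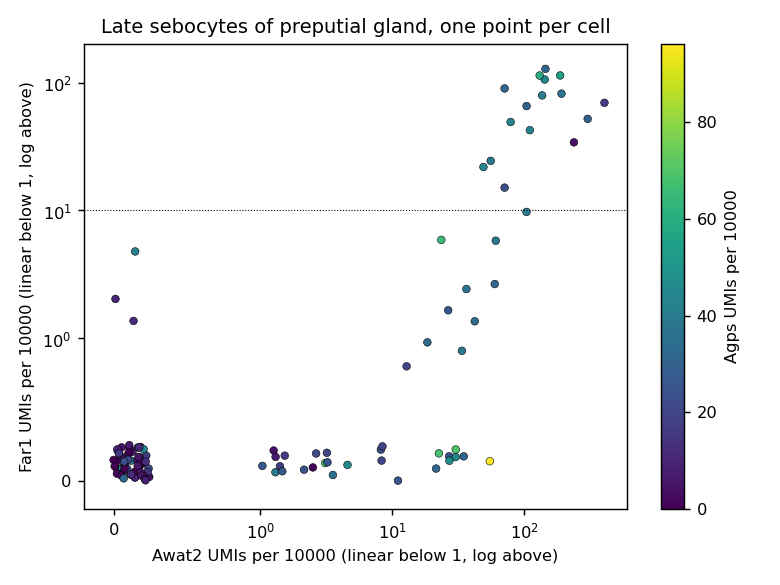
Far1 against Awat2, in UMIs per 10000, for each of the 112 late preputial gland sebocytes, coloured by the Agps share; axes are linear below 1 and logarithmic above, cells at 0 are spread slightly to be visible, and the dotted line marks 10 Far1 UMIs per 10000. The 16 cells above the line all have at least 49.2 Awat2 UMIs per 10000.

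Skin sebocytes held 2 Far1 UMIs, or 9.51 CPM (1.15 to 34.4), and the highest class of skin was macrophages or dendritic cells with 84.5 CPM (58.5 to 118). The PG over skin log2 ratio in sebocytes was 4.54 (2.68 to 7.58). It was 1.78 (-0.10 to 4.83) with at most 5% mitochondrial UMIs and 1.59 (-0.28 to 4.65) without the 16 cells, both with intervals that include no difference, and at least 1.01 after thinning to 1000 UMIs. In this contrast Agps and Far1 were past 2-fold higher, where 17.6% of 6108 genes were, and no member was past 2-fold lower, as 19.9% were. Both reached 20 CPM through PG alone and the contrast was used in the choice of the pathway, so nothing is read from the count. Free RNA of PG had 382 CPM of Far1 (359 to 407), against 18.6 CPM (15.2 to 22.5) in skin. In basal cells, Far1 was 1.57-fold higher in PG than in skin (log2 0.65, 0.38 to 0.93), and the PG basal level was 12.7% of the free RNA level.

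Far2, the paralog of Far1 that also makes fatty alcohols, was taken from a list of related genes. Skin sebocytes held 43 Far2 UMIs, or 205 CPM (148 to 276), with 445 CPM (316 to 608) in late and 16.7 CPM (0.42 to 93.3) in early cells. PG sebocytes held 1 Far2 UMI, or 0.18 CPM (0.0047 to 1.03). The PG over skin log2 ratio was -10.12 (-15.45 to -7.56), the opposite direction to the reported ratio of Far1. Far2 reached 20 CPM through skin alone, and Far1 did so through PG alone. The interval of the Far1 ratio also included no difference under some of the alternatives given above. The opposite directions are therefore a description, and whether the tissues differ in which of these genes they use was not tested.

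Dhrs7b, which reduces the alkyl intermediate, had 41.2 CPM (36.0 to 47.0) in PG sebocytes and 66.6 CPM (36.4 to 112) in skin sebocytes, the latter from 14 UMIs, and the log2 ratio was -0.69 (-1.47 to 0.20). In each tissue sebocytes were the highest class, although the intervals overlapped those of several classes, among them cycling cells with 27.6 CPM (17.7 to 41.1) in PG and 30.9 CPM (24.4 to 38.5) in skin. The PG sebocyte over cycling log2 ratio was 0.58 (-0.03 to 1.25). The skin sebocyte over basal log2 ratio was 1.57 (0.67 to 2.35), where 17.5% of 6154 genes were at least 2-fold higher. Far1, above 20 CPM in basal cells alone, was past 2-fold lower there on 2 UMIs, as 15.9% of genes were, with an interval that includes no difference. Within PG, Dhrs7b had 27.9 CPM (20.2 to 37.6) in early, 46.8 CPM (39.6 to 54.9) in middle and 45.4 CPM (30.8 to 64.4) in late cells. The middle stage was above the early stage (log2 0.74, 0.25 to 1.27), and the late over early ratio of 0.70 had an interval of -0.01 to 1.40.

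Agmo, which cleaves ether lipids, was nearly absent from PG sebocytes, with 5 UMIs or 0.92 CPM (0.30 to 2.15). No UMI was found in the 112 late cells, where 3 counts would be 4.39 CPM and the exact upper limit was 5.40 CPM. Skin sebocytes held 2 UMIs, both in late cells, where Agmo had 22.8 CPM (2.76 to 82.4). Its highest class was endothelial cells in both tissues, with 41.0 CPM (8.46 to 120) in PG and 23.1 CPM (6.30 to 59.2) in skin, from 3 and 4 UMIs. Fibroblasts had 13.3 CPM (6.64 to 23.8) in PG and 17.9 CPM (12.3 to 25.1) in skin, and macrophages or dendritic cells had 10.9 CPM and 17.4 CPM. The intervals of these 3 classes overlapped within each tissue. The PG sebocyte over fibroblast log2 ratio was -3.85 (-5.73 to -2.21). Low Agmo was not particular to sebocytes within PG. Basal cells had 1.57 CPM (0.58 to 3.41), cycling cells 1.15 CPM and upper follicle cells 1.38 CPM. Suprabasal or duct cells had 0 UMIs, with an exact upper limit of 19.8 CPM that leaves their level undecided. The PG sebocyte over basal log2 ratio of Agmo was -0.77 (-2.82 to 1.21), which includes no difference.

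Lists of genes that act before, beside or after these enzymes were described by their counts, to be read beside the 10.3% of all genes at least 2-fold higher and the 17.6% at least 2-fold lower in late against early PG sebocytes. Of 15 genes of peroxisome import, 11 were tested in this comparison, and 7 were at least 2-fold higher and none lower, with a median log2 ratio of 1.41 beside -0.17 over all genes. All 11 were above 20 CPM in both stages. Pex16, which acts in peroxisome membrane assembly, had the largest ratio among them (log2 2.17, 1.81 to 2.53), and Pex3, which does so too, had 1.93 (1.27 to 2.61). Among those with at least 50 CPM, the smallest ratios were 0.55 for Pex6 and 0.56 (0.05 to 1.06) for Pex7, the receptor that brings Agps into peroxisomes. Of 19 genes of ether phospholipid assembly and turnover, 13 were tested, 7 were at least 2-fold higher and 1 lower, and the median was 1.05. Of the 9 above 20 CPM in both stages, 6 were higher and none lower. The lower gene was Cept1, a choline and ethanolamine phosphotransferase, with 9 against 43 UMIs (log2 -1.08, -2.31 to -0.03). Among genes of this list with at least 50 CPM, the smallest log2 ratios were -0.62 for Plpp3 and 0.17 for Plpp2. The largest ratios were those of Tmem189, the plasmanylethanolamine desaturase that makes plasmalogens, from 26.0 to 379 CPM (log2 3.87, 3.38 to 4.39), and of Agpat3, an acyltransferase, from 70.7 to 963 CPM (log2 3.77, 3.47 to 4.07). Both lists also leaned higher in late sebocytes of skin, but on few counts. Skin had 14 early cells with 59733 UMIs and 16 late cells with 87653 UMIs. The early ones also held 11401 CPM of suprabasal or duct keratinocyte markers, whose part in the skin ratios was not tested. Whether the tissues share these stage differences therefore cannot be told. In skin, 7 genes of each list were tested between late and early sebocytes. At least 2-fold higher were 5 of peroxisome import and 4 of assembly and turnover, and none was lower. Both medians were 1.03, where 21.9% of all genes were higher and 22.7% lower. Above 20 CPM in both skin stages were all 7 of peroxisome import and 5 of assembly and turnover, of which 3 were higher.

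Of 5 genes of fatty alcohols and aldehydes, 2 were tested in this comparison, and Aldh3a2, the fatty aldehyde dehydrogenase, went from 55.8 to 879 CPM (log2 3.98, 3.65 to 4.32). The 7 tetrahydrobiopterin genes, which make and recycle the cofactor of Agmo, had 6 tested, 2 higher and 1 lower. Both higher genes reached 20 CPM in late cells alone, so their number is not evidence about the list. They were Gch1, the first enzyme of its synthesis, with 42.4 against 3.89 CPM (log2 3.45), and Gchfr, its regulator, with 23.4 against 7.14 CPM (log2 1.71). The lower gene was Pcbd1 (log2 -1.31, -1.89 to -0.77). Of 5 genes that supply dihydroxyacetone phosphate 3 were tested, with none past 2-fold, and of 8 genes of platelet-activating factor 4 were tested, with 1, Pafah2, higher (log2 1.91) through late cells alone and none lower. Cept1, Gch1, Gchfr and Pafah2 were named after their values were seen.

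The genes whose levels were most like those of each member were sought over 18 groups of classes and stages, 9 per tissue, with at least 100000 UMIs each, among 5866 genes on the log2(CPM + 10) scale. No skin sebocyte group was among them, as sebocytes entered by stage and the skin stages held 59733, 62849 and 87653 UMIs. The groups share 2 libraries and the values are descriptions. Agps was most like Qdpr, the dihydropteridine reductase that regenerates tetrahydrobiopterin (Pearson r 0.96, Spearman rho 0.95), followed by Acot5, Pdss1, Lhpp and Secisbp2l, with r from 0.94 to 0.95. In the skin sebocytes left out, Agps had 0 UMIs. There Qdpr had 76.1 CPM, Pdss1 33.3 CPM, Lhpp 76.1 CPM and Secisbp2l 338 CPM, and Acot5 had 0 CPM. Far1 was most like Idi2 (r 0.90, rho 0.38) and Awat2 (r 0.86, rho 0.11), followed by Nus1, Gpat4 and Selenos. In late PG sebocytes Far1 had 1577 CPM, Awat2 4005 CPM and Idi2 587 CPM, against 36.3, 6.49 and 3.89 CPM in early cells. Awat2 helped to define the late stage, so its r with Far1 is not independent of the grouping. Far1 in that stage came mostly from the 16 cells described above, and both rho values were far below r. Gnpat was most like Cdpf1 (r 0.95) and Dhrs7b most like Thoc3 (r 0.95). Among the members, Agps and Far1 had r 0.69 and rho 0.56, and Gnpat and Far1 had r 0.35 and rho -0.25.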

How the data were processed

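Droplet-based 3′ single-cell libraries of back skin and PG were deposited by the authors as raw counts of UMIs per gene and barcode from Cell Ranger 4 (mm10, per the labels; annotation release not given in the sources used here), unfiltered and not normalized. The skin barcode list held 6794880 entries and the PG list 737280. This difference is part of every tissue comparison, and its effect was not tested.

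A class required at least 3 of its markers and a minimum of 10, 25 or 50 marker UMIs per 10000. Cells that met several classes, not all of them epithelial (368 in skin, 227 in PG), and cells of no class (508 and 292) were left out of class levels. Where only epithelial classes were met, sebocytes came first and basal cells last. Doublets were not otherwise removed, except in an alternative. UMIs were summed per group. Levels have exact Poisson and ratios exact binomial intervals. Only the ratio intervals were tried on simulated counts. These were drawn with counting error alone, so the trial says nothing about spread between cells, which the intervals leave out. Genes with at least 20 CPM and more than 3 UMIs in either group were tested for a 2-fold difference in level, which is a rule of size and no significance test. A group at 0 was set to 3 counts. List genes named were taken from the 2 largest and 2 smallest ratios of a list among genes with at least 50 CPM. Not all of these are given, and Cept1, Gch1, Gchfr and Pafah2 were named outside this rule. For likeness, genes were taken from the 5 highest correlations. The members and lists were chosen with earlier results of these data known. Python 3.11.15, numpy 2.4.6, scipy 1.17.1, pandas 2.3.3 and scanpy 1.11.5 were used. Other filters, gates, scalings, thinning and subtraction of free RNA were tried.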

Additional observations from a re-analysis of the deposited data

How the results depend on the processing

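Of 180 values under alternatives, 134 lay within the reported interval and 46 lay outside it. The sign was opposite for 7 values and for 3 bounds, which give no direction, and in 3 of the 7 the reported interval had excluded no difference. At 3 counts, the bound on the PG over skin log2 ratio of Agps was 5.77, with an exact lower limit of 5.47. The bound at 3 counts became 4.86 with at most 5% mitochondrial UMIs, 5.03 with doubled marker limits, 3.29 with cells thinned to 1000 UMIs and 4.18 in cells of 2000 to 6000 UMIs. The last setting and the removal of Far1-rich cells were chosen after seeing the data. These Agps bounds are set by 3 counts over the UMIs of skin sebocytes, so fewer skin UMIs lower them by definition. Skin sebocytes held 210235 UMIs as reported and 47000 after thinning. The late over early ratio of Agps in PG was 2.58 at 5% mitochondrial UMIs, 2.04 with doubled limits, 2.65 without mitochondrial and ribosomal protein genes, 2.68 without the Far1-rich cells, 2.62 in cells of 2000 to 6000 UMIs and 0.53 with Leiden clusters, which named 224 PG sebocytes with 9 early. That of Far1 was 3.05 at 5% mitochondrial UMIs, 4.95 without high UMIs and doublet scores, 4.10 thinned, 6.01 with free RNA subtracted, 0.64 without the Far1-rich cells and 3.51 at 2000 to 6000 UMIs. The sebocyte over basal ratio in PG was, for Agps, 2.04 at 5% mitochondrial UMIs, 2.89 with doubled limits, 4.399 with Leiden clusters, 2.13 thinned, 3.57 with free RNA subtracted, 2.37 without the Far1-rich cells and 1.71 at 2000 to 6000 UMIs. For Far1 it was 1.66 without high UMIs and doublet scores, 2.42 with doubled limits, 3.74 with Leiden clusters, 1.33 thinned, 3.03 with free RNA subtracted and 0.14 at 2000 to 6000 UMIs, and it reversed to -0.063 at 5% mitochondrial UMIs and -0.68 without the Far1-rich cells. For Dhrs7b in skin it reversed to -0.44 at 2000 to 6000 UMIs, on 2 UMIs. Apart from the dependence of the Agps bounds on skin UMIs, the cause of these changes was not tested. The 47 skin sebocytes limit the sebocyte ratios between tissues, and 20 skin and 270 PG cells lay within 20% of the sebocyte limit. No paired analysis was possible because each tissue has 1 library.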
